A study of Mus musculus with 8 samples.

Results

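The genes described here are 46 components of the interferon system, chosen by name from a list of symbols: 4 genes for interferon receptor chains and 42 interferon-stimulated genes. All 46 had an Ensembl gene ID among the 39179 listed per library. RNA was sequenced from 8 libraries of C57BL/6 mouse bone marrow common lymphoid progenitors (CLPs), which are early cells able to form B, T and natural killer cells. The 4 ex vivo CLP libraries came from freshly isolated cells. The 4 cCLP libraries came from cells cultured for 2 months on OP9, a mouse stromal line, with Flt3 ligand and little IL-7. All cells were sorted as lineage-negative, Flk2-, IL-7 receptor- and CD27-positive and Ly6d-negative, and no label gives an age, an animal, a culture or a mutant allele, so p-values measure only the spread between libraries, which may be technical. The markers of the gate were checked: Flt3, Il7r and Cd27 were above 0 in all 8 libraries. Il7r read 61, 14 and 24 in ex vivo CLP 1, 3 and 4, with cCLP 1 at 28, against 213, 204 and 256 in cCLP 2 to 4, with ex vivo CLP 2 at 193. Ly6d, whose product was sorted against, read 28, 28 and 41 in those ex vivo libraries and 22 in cCLP 1, 0 in ex vivo CLP 2 and 1 in each of cCLP 2 to 4. Il7r and Ly6d split the libraries in the same way as most of the interferon-stimulated genes below, and their part in the results was not tested.

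Interferons are secreted proteins that warn cells of infection. Type I interferons bind the receptor chains Ifnar1 and Ifnar2, and interferon gamma binds Ifngr1 and Ifngr2. The bound receptors activate JAK kinases and STAT proteins, which then act on DNA elements called the ISRE, where Stat2 and Irf9 take part, and GAS. The genes switched on in this way encode sensors of foreign RNA and DNA, enzymes that degrade or edit RNA, and proteins that block viral growth. Haematopoietic progenitors are known to keep some of these genes on without infection.

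In these libraries most of the interferon-stimulated genes were lower in cCLP 2, 3 and 4, here the cultured set, than in ex vivo CLP 1, 3 and 4, here the fresh set, and several were listed at 0 throughout the cultured set. Values of a set are given in the order of these numbers. The receptor genes did not follow: Ifnar1 and Ifngr2 were higher in the cultured libraries, Ifnar2 was lower and Ifngr1 was not called. Against their labels, ex vivo CLP 2 lay with the cultured set and cCLP 1 with the fresh set, and both names stand for the label only. Across all genes ex vivo CLP 2 had a Spearman's rho of 0.973 to 0.979 with cCLP 2 to 4 and of 0.913 to 0.927 with ex vivo CLP 1, 3 and 4, and cCLP 1 had a rho of 0.97 to 0.974 with those ex vivo libraries and of 0.924 to 0.925 with cCLP 2 to 4. These values describe likeness across genes, which are not independent replicates. Results are therefore given with and without this pair, with each library kept under its own label. Leaving the pair out was a choice made from the profiles, so p-values over the 6 remaining libraries hold only given it and are no independent evidence.

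Values were deposited as whole numbers that do not vary as read counts do, so the depth is unknown, and for a value of 0 the text says only that the gene was listed at 0. They summed to between 378594 and 704305 per library, ex vivo CLP 4 having the highest sum. Scaled values are deposited values divided by a library factor. Because the effect of gene length on the deposited values is not stated, levels are compared between libraries and not between genes. In bulk RNA, fewer cells of a type and less RNA per cell cannot be told apart.

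Promoter sequences are shown first for 4 interferon-stimulated genes, since the ISRE is the element through which the family is best known to respond. They belong to the 5 members holding a match that had the largest decreases in the cultured set without a filter on low values; the other, Gbp2, is not printed. Of the 46 members, 34 had a promoter in the RefSeq table (build GRCm38.p6), 300 bases long each. The ISRE was searched on both strands as GAAA, any 2 bases and GAAA again, and matches could overlap. The last 150 bases before the annotated start are printed 5′ to 3′ on the gene's strand, with ISRE matches in capitals.
Oas1a, chr5:120907526-120907675, minus strand: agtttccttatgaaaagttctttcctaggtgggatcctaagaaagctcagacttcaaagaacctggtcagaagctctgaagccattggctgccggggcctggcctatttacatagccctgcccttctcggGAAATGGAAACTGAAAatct
Rsad2, chr12:26456453-26456602, minus strand: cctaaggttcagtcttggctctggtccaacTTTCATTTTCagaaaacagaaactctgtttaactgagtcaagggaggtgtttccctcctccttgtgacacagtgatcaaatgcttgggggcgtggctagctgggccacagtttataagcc
Trim30a, chr7:104465194-104465343, minus strand: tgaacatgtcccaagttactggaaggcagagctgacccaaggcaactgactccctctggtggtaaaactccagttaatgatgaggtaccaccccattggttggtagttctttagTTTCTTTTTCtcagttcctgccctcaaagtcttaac
Oas3, chr5:120777660-120777809, minus strand: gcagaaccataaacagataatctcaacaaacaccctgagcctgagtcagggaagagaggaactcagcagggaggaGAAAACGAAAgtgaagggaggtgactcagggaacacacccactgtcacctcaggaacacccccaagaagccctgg

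Oas1a held 2 overlapping matches, whose first bases lay -20 and -14 from the start. In Rsad2 and Trim30a the match read on the opposite strand, as TTTC, any 2 bases and TTTC, and so did that of Gbp2, -59 from the start. Isg15, which encodes a ubiquitin-like protein, had 3 matches, and Ifit1, Ifit3 and Oas1g had 2 each. In all, 14 of the 34 members (41.2%) held the ISRE letters, against 3.99% of the 27025 genes in the table, and 0 of the 4 receptor genes did. The GAS letters (TTC, any 3 bases and GAA, which read the same on both strands) were in 10 of the 34 members, Ifnar1 and Ifnar2 among them, against 9.55% of all genes. A match is a description of letters and not of a bound site. Without a filter on low values, 11 of the 14 interferon-stimulated genes with an ISRE match were lower in the cultured set by limma (adjusted p below 0.05), with a median log2 fold change of -1.64. So were 13 of the 16 without a match, with a median of -1.54, and 10 of the 12 with no promoter in the table, with a median of -1.36. Of all 13755 genes fitted without the filter, 20.2% were lower. Each called gene with a match had scaled values below 10 throughout the cultured set, so its call rests on low values there. Its fold change then depends on the pseudocount, and the counts above are no evidence about the motif. Members that fell were found both with and without the match.

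**Figure D1:**
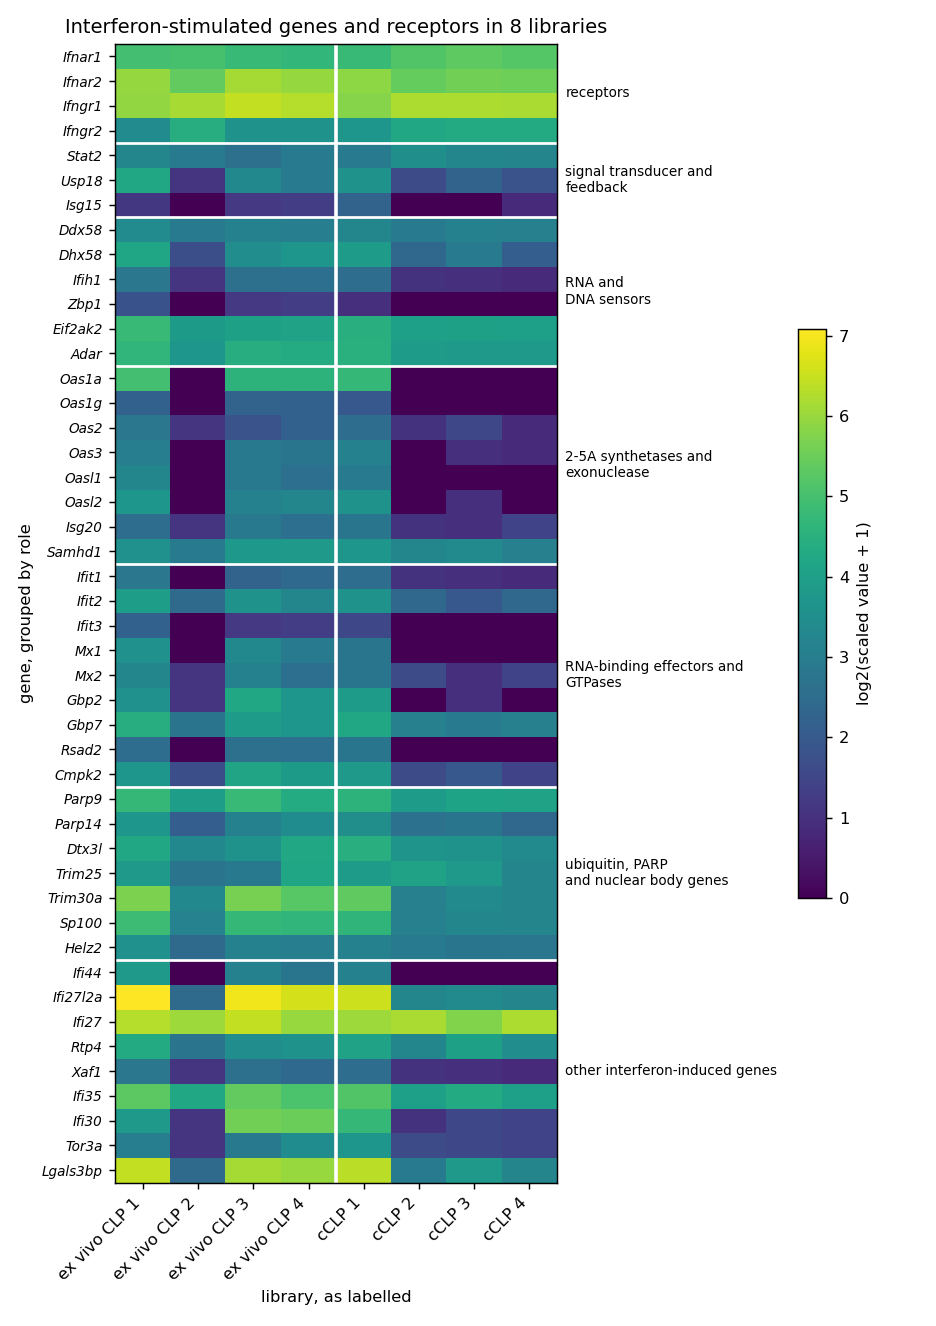
Heat map of log2(scaled value + 1) for the 46 genes (rows, grouped by role) in the 8 libraries (columns, as labelled, with white lines between labelled groups and between roles). Ex vivo CLP 2 and cCLP 2 to 4 are dark (low) over most interferon-stimulated genes, and between 9 and 12 of the 42 are listed at 0 there, while none of the receptor genes at the top, nor Ifi27, is at 0 in any library.

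The first comparison, in which p-values rest on the labels as given, took the libraries as labelled and asked whether cultured and fresh CLPs differ in these genes. A gene was tested with limma when 4 or more libraries had a scaled value of 10 or higher, and was called at a Benjamini-Hochberg adjusted p below 0.05 over all genes tested. Of the 46 genes 23 were tested, and 0 were higher and 0 lower in cCLPs, where 0.0% of the 6580 genes tested were called in either direction. None of the 23 had an unadjusted p below 0.05, against 510 of the 6580 genes. Without the filter, which tested all 46, limma also called 0 members, and 0 had an unadjusted p below 0.05. The labelled groups overlapped in all 46, whereas among 13861 genes they lay apart in 1.63% that were lower and 1.51% that were higher in cCLPs.

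The 3 genes with the smallest unadjusted p show how the labelled groups spread. Ifi35, an interferon-induced leucine zipper protein gene, averaged 32.6 ± 10.3 (SD, n = 4) in the labelled ex vivo group and 21.1 ± 9.59 in the cCLP group (log2 fold change -0.63 ± 0.33, SE; limma adjusted p = 0.482). Ifnar1 averaged 28.4 ± 2.95 and 34.2 ± 5.38 (0.25 ± 0.14, limma adjusted p = 0.482). Trim30a, which encodes a tripartite motif protein, averaged 36.3 ± 19.1 and 16.3 ± 15.7 (-1.21 ± 0.67, limma adjusted p = 0.482). For Ifi35 and Trim30a, ex vivo CLP 2 lay nearer to the cultured set and cCLP 1 nearer to the fresh set. For the other receptor genes the log2 fold changes were -0.26 ± 0.18 for Ifnar2, -0.10 ± 0.14 for Ifngr1 and 0.39 ± 0.23 for Ifngr2 (limma adjusted p = 0.484, 0.676 and 0.482). Without ex vivo CLP 2 and cCLP 1, 2 members were higher and 15 lower.

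The placing of these libraries can be read from the members alone. In 36 of the 46 genes the cultured set lay below the fresh set with no overlap, a pattern that 26.2% of 13755 genes showed. In all 36, ex vivo CLP 2 was nearer to the mean of the cultured set, and cCLP 1 nearer to the mean of the fresh set. The rho values above show the same placing across all genes, so it is not particular to these members. Summed over the 42 interferon-stimulated genes, the deposited values came to 1844, 1352 and 1342 per 1000000 of all values in the fresh set, to 1521 in cCLP 1, to 437.7 in ex vivo CLP 2 and to 571.4, 538.8 and 511 in the cultured set. The number of the 42 listed at 0 was 0 in each library of the fresh set and in cCLP 1, 12 in ex vivo CLP 2, and 12, 9 and 10 in the cultured set.

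The second comparison set the fresh set against the cultured set. Here 3 such libraries were enough for a gene to be tested. Of the 23 members tested, 15 were lower and 2 higher in the cultured set, while over all 6622 genes tested 22.4% were lower and 20.7% higher. The median log2 fold change of the tested members was -0.61, against -0.00133 for all genes tested. Of the 15 that fell, 10 were below 10 throughout the cultured set: Dhx58, Oas1a, Samhd1, Gbp2, Gbp7, Cmpk2, Trim30a, Sp100, Ifi27l2a and Ifi30. These 10 passed the filter only through the ex vivo libraries and could only fall, so their p-values below are no support for a direction. Neither the count nor the median is therefore evidence about the list as a whole. The 13 tested members at 10 or more in some library of both groups comprised 5 that fell (Ifnar2, Adar, Parp9, Ifi35 and Lgals3bp), 2 that rose and 6 that were not called. Among all 5931 such genes 18.7% fell and 18.3% rose.

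Without the filter on low values all 46 were tested, and 35 were lower and 2 higher, where 20.2% of 13755 genes were lower and 16.3% higher. The groups did not overlap in 36 members that were lower in the cultured set, and 26.2% of the 13755 genes showed that pattern. Many of the members gained without the filter were listed at 0 or 1 in the cultured libraries. For them the SE takes little or no spread in expression from those libraries. With a filter on the mean over the 6 libraries instead, 2 members were higher and 12 lower, where 19.6% of 6388 genes were higher and 21.6% lower.

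**Figure D2:**
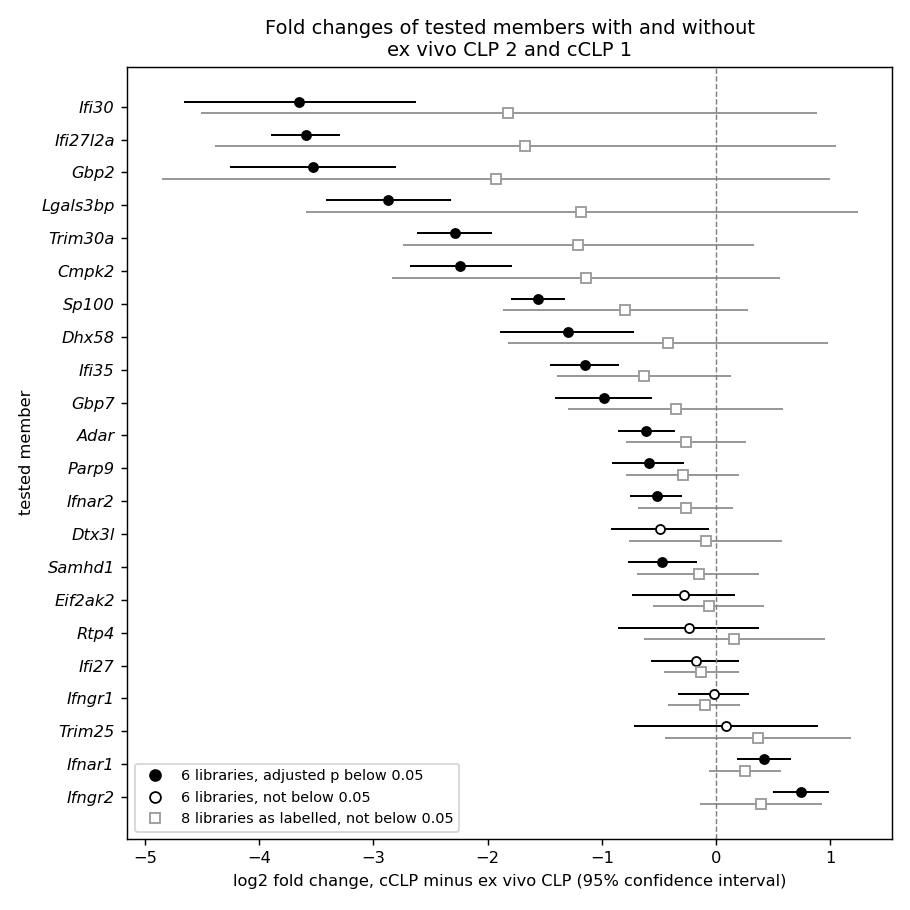
Log2 fold changes (x axis, cCLP minus ex vivo CLP, with 95% confidence intervals) of the tested members in limma fits of 6 libraries (black circles, filled where the adjusted p was below 0.05) and of all 8 libraries as labelled (grey squares). Ifi30, Ifi27l2a and Gbp2 lie farthest to the left over 6 libraries and Ifngr2 farthest to the right, and every interval over 8 libraries crosses 0. Oas1a is not drawn because it is listed at 0 in cCLP 2 to 4.

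The receptor genes came first in the order of the pathway. Ifnar1, the first chain of the type I receptor, was listed at 25, 21 and 35 in the fresh set and at 33, 41 and 43 in the cultured set, with ex vivo CLP 2 at 28 and cCLP 1 at 28. The scaled mean rose from 27.6 ± 2.64 (SD, n = 3) to 37.2 ± 2.17 (0.42 ± 0.10 on the log2 scale, SE; limma adjusted p = 0.0132), and the groups did not overlap. This call ended without cCLP 3 (adjusted p = 0.0609). Ifnar2, the chain that Stat2 is known to bind, was listed at 51, 55 and 86 in the fresh set and at 39, 49 and 54 in the cultured set, with ex vivo CLP 2 at 36 and cCLP 1 at 61. It fell from 65.1 ± 4.77 to 45 ± 2.79 (-0.52 ± 0.10, limma adjusted p = 0.00381). Both chains of the type I receptor were thus above 0 in all 8 libraries, and they changed in opposite directions.

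For interferon gamma, Ifngr1 encodes the main ligand-binding chain. It was listed at 50, 67 and 109 in the fresh set and at 69, 77 and 85 in the cultured set, with ex vivo CLP 2 at 63 and cCLP 1 at 58. The scaled groups overlapped, at 75.4 ± 12.9 (SD, n = 3) and 73.5 ± 1.29, with a log2 fold change of -0.02 and a 95% interval of -0.33 to 0.29. Ifngr2, the second chain, which brings in Jak2, was listed at 8, 9 and 16 in the fresh set and at 17, 20 and 23 in the cultured set, with ex vivo CLP 2 at 18 and cCLP 1 at 13. It rose from 11 ± 1.04 to 19 ± 0.663 (0.74 ± 0.11, limma adjusted p = 0.000943), the largest rise among the members. On chromosome 16 (GRCm38) Ifnar2 (91372783 to 91405589), Ifnar1 (91485238 to 91507441) and Ifngr2 (91547072 to 91565623) are neighbours on the plus strand, within 192.8 kb. Il10rb, which encodes a chain shared by the receptors of interferon lambda and IL-10, lies between Ifnar2 and Ifnar1. It was at 18.2 ± 5.50 and 24.2 ± 1.67 and was not called (0.43 ± 0.19, limma adjusted p = 0.0989). Neighbours in this cluster therefore moved both up and down.

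**Figure D3:**
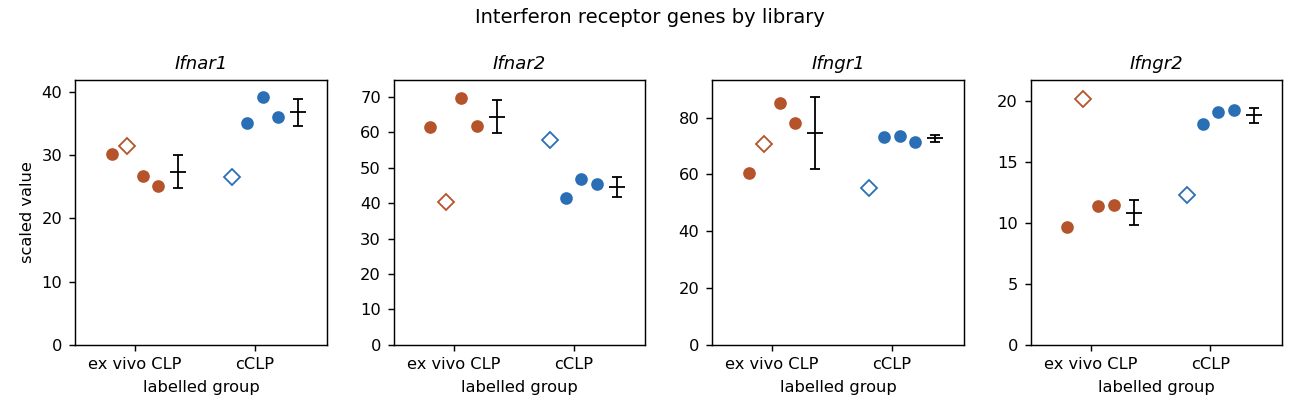
Scaled values (y axis) of the 4 receptor genes by labelled group, 1 point per library, with open diamonds for ex vivo CLP 2 and cCLP 1 and bars for the mean ± SD of the other 3 libraries. Ifnar1 and Ifngr2 are higher in cCLP 2 to 4, Ifnar2 is lower, and Ifngr1 overlaps.

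Next come Stat2, a part of the ISRE-binding complex, and the ISG15 system. Stat2 was low and not tested, at 7, 4 and 9 in the fresh set and 10, 9 and 10 in the cultured set, with overlapping scaled groups, so it did not share the decrease of most members. Usp18, a protease that removes Isg15 from proteins and damps signalling at Ifnar2, was listed at 15, 7 and 9 in the fresh set and at 2, 4 and 3 in the cultured set. Isg15 itself was listed at no more than 4 in any library. Neither was tested with the filter, and both were lower without it (limma adjusted p = 0.00765 for Usp18 and 0.0372 for Isg15).

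The sensors of foreign nucleic acid split. Dhx58, which encodes LGP2, a regulator of the RNA helicases RIG-I and MDA5, was listed at 14, 8 and 17 in the fresh set and at 4, 7 and 4 in the cultured set, with ex vivo CLP 2 at 2 and cCLP 1 at 15. It fell by 1.30 ± 0.25 (SE) on the log2 scale (limma adjusted p = 0.00443), but it was below 10 throughout the cultured set. Ifih1, the MDA5 gene, was listed at 5, 4 and 7 and at 1 throughout the cultured set, whereas Ddx58, the RIG-I gene, was at 8, 6 and 10 and at 6, 8 and 9 with overlapping scaled groups. The 2 helicase genes of this family thus had different patterns, although neither reached the filter. Zbp1, a sensor of Z-form nucleic acid, was listed at no more than 2 in any library and at 0 throughout the cultured set.

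Among the genes acting on double-stranded RNA, Adar, which edits adenosine to inosine, fell from 21.5 ± 2.57 (SD, n = 3) to 13.7 ± 0.247 (-0.61 ± 0.11 on the log2 scale, SE; limma adjusted p = 0.0029). Both groups of Adar were above 10, so its direction was free. Eif2ak2, which encodes the kinase PKR that stops translation, was at 19.4 ± 6.47 and 15.2 ± 0.206 and was not called (-0.28 ± 0.20, 95% interval -0.74 to 0.17). Its listed values were 22, 12 and 22 in the fresh set and 14, 16 and 18 in the cultured set, and ex vivo CLP 1 was the high library once scaled.

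In the oligoadenylate synthetase family 3 of 6 genes were listed at 0 throughout the cultured set. Active enzymes of the family make short adenylate chains that activate the RNA-cutting enzyme RNase L, which need not hold for every member. Oas1a (chromosome 5, 120896256 to 120907521) was listed at 25, 18 and 32 in the fresh set and at 27 in cCLP 1, but at 0 throughout the cultured set and in ex vivo CLP 2. It passed the filter only through the ex vivo libraries and could only fall, and the cultured set adds no spread to its SE. Limma called it lower (adjusted p = 9.87e-07), and no fold is given against values of 0. The near-identical Oas1g, 8.6 kb away on the same strand, was listed at 3, 3 and 5, at 3 in cCLP 1 and at 0 in the other 4 libraries. Reads shared by these copies could have been split or dropped in counting, so the values of each are uncertain.

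The rest of the family was also lower in the cultured set without the filter. Oas2 was listed at 5, 2 and 5 in the fresh set and at 1, 2 and 1 in the cultured set, and Oas3 at 6, 5 and 8 and at 0, 1 and 1. The like proteins encoded by Oasl1 and Oasl2 followed, with Oasl1 at 7, 5 and 7 and then 0, 0 and 0, and Oasl2 at 10, 6 and 12 and then 0, 1 and 0. None of these reached the filter, and the fit without it called all 6 Oas and Oasl genes lower. Isg20, an RNA exonuclease gene, was at 4, 5 and 7 and at 1, 1 and 2, and was also lower without the filter (limma adjusted p = 0.000507). Samhd1, whose product depletes deoxynucleotides, changed less: it was listed at 9, 10 and 18 and at 8, 10 and 9, with a log2 fold change of -0.47 ± 0.13 (SE; limma adjusted p = 0.0207). That call ended without ex vivo CLP 3, ex vivo CLP 4, cCLP 2 or cCLP 4 (adjusted p = 0.0529, 0.0664, 0.0687 and 0.0927). Samhd1 also had scaled values below 10 throughout the cultured set, so it could only fall.

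Of the 9 effectors that bind RNA and interferon-induced GTPases, 3 were tested and all 3 fell, each being below 10 throughout the cultured set. Gbp2, a guanylate-binding protein gene, was listed at 9, 14 and 17 in the fresh set and at 0, 1 and 0 in the cultured set, with ex vivo CLP 2 at 1 and cCLP 1 at 15. Its log2 fold change was -3.53 ± 0.32 (SE; limma adjusted p = 8.09e-05) with a pseudocount of 1 and -1.81 with one of 5, so the size rests on the pseudocount. Gbp7, 70.5 kb away, had a smaller difference, at 17, 11 and 17 and at 7, 7 and 9 (-0.98 ± 0.18, limma adjusted p = 0.00374). The GBP genes form a family of similar sequences, and reads may have been shared between them.

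Cmpk2, a mitochondrial nucleotide kinase gene, and Rsad2, which encodes viperin, an enzyme that makes a chain-ending nucleotide, are neighbours on chromosome 12, 12.8 kb apart on opposite strands. Cmpk2 was listed at 10, 13 and 19 in the fresh set and at 2, 3 and 2 in the cultured set, with ex vivo CLP 2 at 2 and cCLP 1 at 14. It fell by 2.24 ± 0.19 (SE) on the log2 scale (limma adjusted p = 6.31e-05), and the log2 fold change was -1.40 with a pseudocount of 5. Rsad2 was listed at 4, 4 and 7, at 6 in cCLP 1 and at 0 in the other 4 libraries. Both neighbours were therefore low in the same libraries.

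The IFIT genes, whose proteins hold RNA lacking a host-type cap, and the Mx genes, whose proteins, where functional, assemble around viral particles, were all low. Ifit1 was listed at 5, 3 and 6 in the fresh set and at 1 throughout the cultured set, and Ifit3 at 3, 1 and 2 and at 0. Ifit2 was listed at 12, 9 and 12 and at 4, 3 and 5, just under the filter. Mx1 was at 9, 7 and 9 and at 0 throughout the cultured set. Mx2, on the other strand of chromosome 16 and annotated as a polymorphic pseudogene, was at 7, 6 and 7 and at 2, 1 and 2. Without the filter limma called all 5 lower, with adjusted p from 1.66e-05 for Mx1 to 0.00487 for Ifit3.

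Of the 7 ubiquitin, PARP and nuclear body genes, 5 were tested, 3 fell and 2 were not called. Trim30a (chromosome 7, 104409025 to 104465193), a regulator of innate signalling, was listed at 42, 38 and 52 in the fresh set and at 7, 10 and 10 in the cultured set, with ex vivo CLP 2 at 8 and cCLP 1 at 42. It fell from 45.9 ± 7.23 (SD, n = 3) to 8.55 ± 1.07 (-2.29 ± 0.14, limma adjusted p = 1.07e-05). Trim30a has close relatives beside it, and one of them, Trim30d, fell from 14.5 ± 2.41 to 1.57 ± 0.443 (-2.60 ± 0.20, limma adjusted p = 3.12e-05). Sp100, a nuclear body protein gene, was listed at 23, 20 and 34, at 7 in ex vivo CLP 2, at 25 in cCLP 1 and at 7, 9 and 10. Its fall of 1.56 ± 0.10 on the log2 scale (limma adjusted p = 1.61e-05) came with SDs under 2 scaled units in both groups. Both Trim30a and Sp100 had scaled values below 10 throughout the cultured set. They passed the filter only through the ex vivo libraries and could only fall.

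Parp9 and Dtx3l encode partner proteins that modify ubiquitin and histones. They lie head to head on chromosome 16 with 682 bases in common on opposite strands, and whether strand was used in counting is not stated. Parp9 fell from 24.1 ± 3.93 (SD, n = 3) to 15.5 ± 1.33 (-0.59 ± 0.14, limma adjusted p = 0.0102). Dtx3l was at 16 ± 3.86 and 10.9 ± 1.38 with overlapping groups (-0.49 ± 0.19, limma adjusted p = 0.065), and it passed without ex vivo CLP 3 (adjusted p = 0.00602). Parp14, a related gene in the same region, was listed at 10, 6 and 14 and at 5, 6 and 5 and did not reach the filter. Trim25, the ubiquitin ligase known for acting on RIG-I, ranged from 5 to 24 in the fresh set and from 10 to 15 in the cultured set and was not called (log2 fold change 0.09, 95% interval -0.72 to 0.89). Helz2, a helicase and co-activator gene, was listed at 9, 6 and 10 and at 6, 6 and 7 and was not called without the filter either (limma adjusted p = 0.0717).

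Of the 9 other interferon-induced genes, 6 were tested, and the 4 that fell included the members with the widest gap in scaled values. Ifi27l2a (chromosome 12, 103442167 to 103443680), a small protein gene strongly induced by type I interferon, was listed at 112, 95 and 137 in the fresh set and at 8, 10 and 10 in the cultured set, with ex vivo CLP 2 at 4 and cCLP 1 at 97. It fell from 119 ± 18.9 (SD, n = 3) to 8.91 ± 0.652 (-3.59 ± 0.13, limma adjusted p = 8.55e-07). Its scaled values were below 10 throughout the cultured set, so it could only fall. Its relative Ifi27, only 1.9 kb away on the other strand, was listed at 64, 67 and 87, at 58 in ex vivo CLP 2, at 69 in cCLP 1 and at 68, 55 and 88. Ifi27 was not called, with a log2 fold change of -0.18 and a 95% interval of -0.57 to 0.20, so these adjacent relatives had different patterns.

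Lgals3bp (chromosome 11, 118392751 to 118402092) encodes a secreted galectin-binding glycoprotein. It was listed at 71, 54 and 88 in the fresh set and at 6, 14 and 10 in the cultured set, with ex vivo CLP 2 at 4 and cCLP 1 at 85. The fall was from 73.3 ± 12 (SD, n = 3) to 9.48 ± 3.64 (-2.87 ± 0.24, limma adjusted p = 5.36e-05), with cCLP 3 above 10. Ifi30, a lysosomal thiol reductase gene used in antigen processing, was listed at 11, 37 and 62, at 1 in ex vivo CLP 2, at 27 in cCLP 1 and at 1, 2 and 2. It fell by 3.65 ± 0.44 on the log2 scale (limma adjusted p = 0.000439), and the log2 fold change was -2.47 with a pseudocount of 5 and -4.24 without ex vivo CLP 1. Being below 10 throughout the cultured set, Ifi30 could only fall. Ex vivo CLP 1 was the low ex vivo library for Ifi30, at 0.291 times the mean of ex vivo CLP 3 and 4.

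Ifi35 was listed at 32, 32 and 46 in the fresh set and at 14, 20 and 18 in the cultured set, with ex vivo CLP 2 at 16 and cCLP 1 at 37. Both groups were above 10, and it fell from 37.8 ± 4 (SD, n = 3) to 16.5 ± 2.41 (-1.15 ± 0.13, limma adjusted p = 0.000287). Rtp4, a chaperone gene for membrane receptors, was listed at 16, 8 and 16 and at 8, 16 and 12, and its groups overlapped (-0.24 ± 0.27, limma adjusted p = 0.499). The remaining genes of this role did not reach the filter and were lower without it. Ifi44 was listed at 11, 6 and 8 and at 0 throughout the cultured set, Xaf1, a death-promoting factor gene, at 5, 4 and 6 and at 1 in each, and Tor3a, a torsin gene, at 6, 5 and 14 and at 2 in each.

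Across all roles, 8 members were listed at 0 throughout the cultured set: Zbp1, Oas1a, Oas1g, Oasl1, Ifit3, Mx1, Rsad2 and Ifi44. All 8 were also at 0 in ex vivo CLP 2, and all 8 were above 0 in the fresh set and in cCLP 1. Of the 42 interferon-stimulated genes, 7 had overlapping groups: Stat2, Ddx58, Eif2ak2, Dtx3l, Trim25, Ifi27 and Rtp4. These 7 were above 0 in all 8 libraries.

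**Figure D4:**
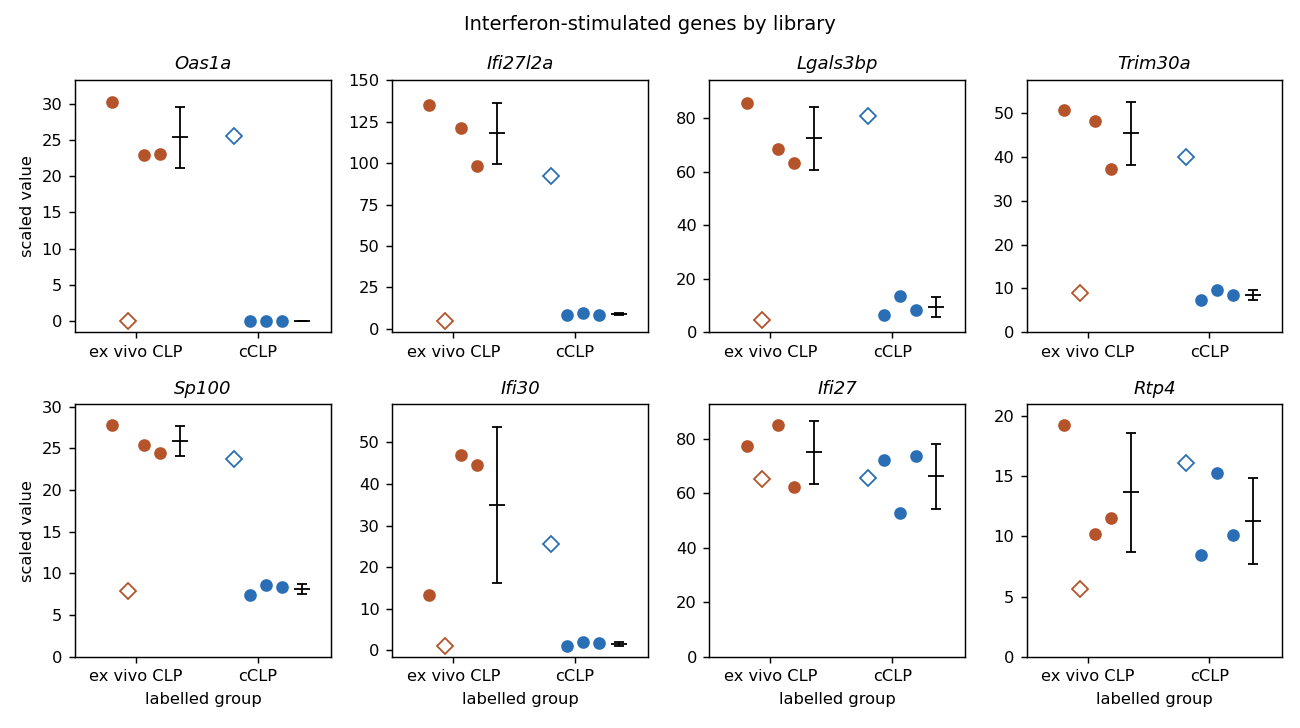
Scaled values (y axis) of 8 interferon-stimulated genes by labelled group, 1 point per library, with open diamonds for ex vivo CLP 2 and cCLP 1 and bars for the mean ± SD of the other 3 libraries. In the first 6 panels ex vivo CLP 2 sits beside cCLP 2 to 4 and cCLP 1 beside the ex vivo libraries, while Ifi27 and Rtp4 overlap between the groups.

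Within the fresh set most members, but not all, were highest in ex vivo CLP 1. The same ranking over all genes is not given, so the counts that follow are not a result about the members. Of the 42 interferon-stimulated genes, 29 had their highest scaled value in ex vivo CLP 1, 9 in ex vivo CLP 3 and 4 in ex vivo CLP 4. Usp18 was 2.36 times, Ifi44 1.99 times and Oas2 1.97 times the mean of ex vivo CLP 3 and 4 in ex vivo CLP 1, whereas Gbp2 (0.727) and Cmpk2 (0.804) were lower there, as was Ifi30. Sp100, Rsad2 and Oas1g varied least, with a coefficient of variation of 6.76%, 2.62% and 3.19% over the fresh set. The last 2 rest on values of 7 or less. In the cultured set Adar (1.71%), Eif2ak2 (1.32%) and Ifngr1 (1.72%) varied least.

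Other genes of the pathway were taken from lists of signalling, ligand, sensing and further interferon-stimulated genes. Of 17 interferon genes with an ID, including Ifnb1, Ifng and several Ifna genes, all were listed at 0 in all 8 libraries. Of the 18 signalling genes 16 were tested over the 6 libraries, and 1 rose and 9 fell, where 20.7% of all genes tested rose and 22.4% fell. Of the 9, 2 (Irf7 and Socs3) were below 10 throughout the cultured set and could only fall. Irf9, which binds the ISRE together with Stat2, fell from 28.6 ± 4.96 (SD, n = 3) to 13.9 ± 1.22 (-0.98 ± 0.14, limma adjusted p = 0.00104). Irf9 was thus lower while the low Stat2 overlapped.

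The regulators Irf7 and Irf1, which are themselves induced by interferon, fell from 17.8 ± 2.59 (SD, n = 3) to 5.74 ± 0.897 and from 90.3 ± 21.8 to 11.8 ± 0.771 (-1.48 ± 0.15 and -2.81 ± 0.18; limma adjusted p = 0.000154 and 1.07e-05). Socs3, a feedback inhibitor, had the largest decrease in the list, from 31.7 ± 10.6 to 0.963 ± 0.114 (-4.00 ± 0.25, limma adjusted p = 1.16e-05). It was listed at 1 throughout the cultured set, so its SD there reflects only the library factors. Of the receptor kinases, Jak1 and Tyk2 were not called (-0.18 ± 0.11 and -0.17 ± 0.09, limma adjusted p = 0.228 and 0.162). Jak2 fell from 31.8 ± 5.83 to 19 ± 0.663 (-0.70 ± 0.14, limma adjusted p = 0.0048). Irf3, which acts upstream of interferon genes, was the gene that rose (0.35 ± 0.10, limma adjusted p = 0.022).

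Of the genes that sense nucleic acid or carry the signal, 9 were tested, and 3 were higher and 2 lower, again beside 20.7% and 22.4% of all genes. Of the 3, 2 were below 10 throughout the fresh set and could only rise, and with 9 genes the count is not a result about the list. Tmem173, which encodes STING, the adaptor for cytosolic DNA, rose from 89.4 ± 9.56 (SD, n = 3) to 152 ± 9.11 (0.77 ± 0.11, limma adjusted p = 0.00104). Myd88, an adaptor of Toll-like receptors, had the largest fall there (-0.43 ± 0.13, limma adjusted p = 0.0282). In the list of 70 further interferon-stimulated genes, 32 were tested, 1 rose and 22 fell, beside the same shares of all genes. Of the 22, 7 were below 10 throughout the cultured set and could only fall, Gbp3 and Trim30d among them. Gbp3 fell most, from 35.2 ± 2.13 to 0.604 ± 0.527 (-4.56 ± 0.26, limma adjusted p = 6.1e-06), and Ifi203, a member of the cluster of DNA-binding interferon genes, was the one that rose (0.50 ± 0.13, limma adjusted p = 0.0146). Over the 8 libraries as labelled limma called 0 genes of any of these lists.

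The summed markers of several other cell types moved with the interferon-stimulated genes, and their part in the result was not tested. Per 1000000 of all values, the 10 granulocyte markers summed to between 2620 and 5370 in the fresh set and to between 541 and 567 in the cultured set, where only Mpo and Prtn3 were above 0. They summed to 3060 in cCLP 1 and to 321 in ex vivo CLP 2. The 10 monocyte and macrophage markers summed to between 460 and 576 and between 69.1 and 127. Only Lyz2, Itgam and Ccr2 of these were above 0 in the cultured set. Ccr2 did not fall, at 11, 21 and 29 in the fresh set and at 21, 54 and 30 in the cultured set. The 13 dendritic cell markers summed to between 1410 and 1560 and between 1160 and 1270. They include Bst2 (also in the list of further interferon-stimulated genes) and the gate gene Flt3. Members of that list went opposite ways. Siglech, a marker of plasmacytoid dendritic cells, was listed at 39, 36 and 49 in the fresh set and at 1, 4 and 3 in the cultured set, whereas the chemokine receptor gene Ccr9 was at 7, 5 and 6 and then at 224, 241 and 306. Irf8 was at 118, 116 and 251 and then at 5, 7 and 5, the antigen presentation gene Cd74 at 41, 53 and 89 and then at 1 throughout, and H2-Aa, H2-Ab1 and H2-Eb1 were at 0 throughout the cultured set. Xcr1 and Zbtb46, markers of conventional dendritic cells, were at 0 in all 8 libraries.

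In ex vivo CLP 1, 3 and 4 in turn, the sums per 1000000 were 1844, 1352 and 1342 for the 42 interferon-stimulated genes, 2620, 5300 and 5370 for the granulocyte markers, 460, 576 and 557 for the monocyte and macrophage markers, and 1560, 1410 and 1560 for the dendritic cell markers. In cCLP 1 they were 1521, 3060, 483 and 1470. The B lineage markers were higher in the cultured set (26.6 to 46.3 per 1000000) than in the fresh set (5.68 to 7.92). The 8 erythroid markers summed to between 185 and 328 in the fresh set and between 26.6 and 36.4 in the cultured set. Of the 12 stromal markers, 9 were at 0 in all 8 libraries, Col1a1, Col1a2 and Col3a1 among them. The fibronectin gene Fn1 was at 0, 0 and 1 in the fresh set and at 11, 7 and 7 in the cultured set, with 5 in ex vivo CLP 2 and 0 in cCLP 1, while Thy1 was at no more than 2 and Pdgfrb at no more than 12 in any library. The 6 T lineage markers summed to between 2.64 and 5.68 in the fresh set and between 0 and 2.3 in the cultured set. Cd4 was at 1, 1 and 2 in the fresh set and at 1, 1 and 0 in the cultured set. The T lineage genes Cd3e, Cd8a and Bcl11b were at 0 in all 8 libraries, as were Ncr1, Eomes and Gzma of the 6 natural killer markers. The natural killer sum was nevertheless higher in the cultured set (62.2 to 77.7) than in the fresh set (27 to 42.3), through Klrd1, a receptor chain gene, at 14, 13 and 16 in the fresh set and 27, 35 and 47 in the cultured set.

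**Figure D5:**
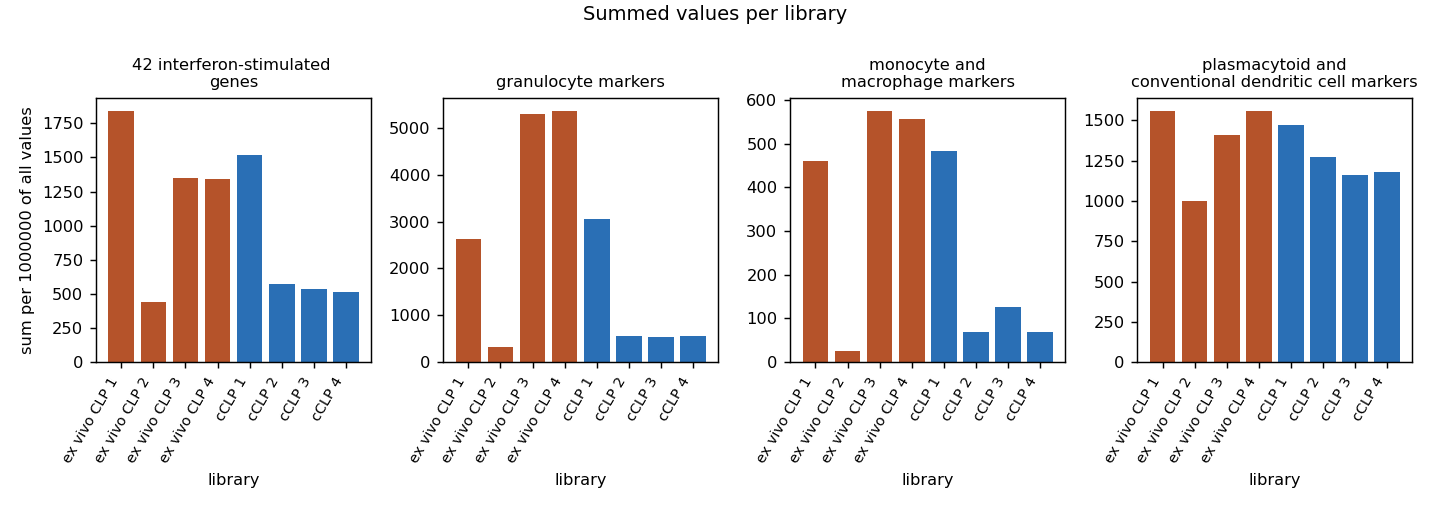
Bars of summed deposited values per 1000000 of all values (y axis, from 0) in each of the 8 libraries, for the 42 interferon-stimulated genes and for 3 marker lists, ex vivo CLP in brown and cCLP in blue. The 42 genes sum to between 1342 and 1844 in ex vivo CLP 1, 3 and 4 and cCLP 1 and to between 437.7 and 571.4 in the other 4 libraries. The granulocyte markers sum to between 2620 and 5370 in the first 4 of these and to between 321 and 567 in the others.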

How the data were processed

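RNA was measured in 8 libraries. Per the labels' protocols, it was extracted with TRIzol and made into stranded total RNA libraries after removal of ribosomal RNA, read in pairs. The submitters' processing notes name TopHat2, Bowtie2, HTSeq 1.0.6 and the GRCm38 (mm10) genome; the roles, the strand setting and any scaling are not given in the sources used here. Each Ensembl gene ID has a deposited score, written without decimals, in a unit that neither the labels nor a file header names. It is not a count: for middle values (5 to 50) the dispersion index was 0.54 between ex vivo CLP 3 and 4 and 0.26 between cCLP 3 and 4, where Poisson counts drawn at the same means gave 1.03 and 0.991. Depth is therefore unknown, and arguments from counting error do not apply.

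GENCODE vM21 matched 37607 of 39179 IDs and gave symbols and positions. Libraries were scaled by trimmed mean log ratios (30% of ratios and 5% of levels trimmed). Genes with a scaled value of at least 10 in as many libraries as the smaller group has were fitted as log2(scaled value + 1) on group with limma 3.58.1 (R 4.3.3; variance trend, robust moderation), two-sided, with Benjamini-Hochberg adjustment over all genes tested and a threshold of 0.05. Fold changes are cCLP minus ex vivo CLP on that scale, which understates changes of low genes. The fit was tested on simulated data. Promoters came from RefSeq. Python 3.11.15, pandas 2.3.3 and matplotlib 3.10.9 made tables and figures. Listed values are as deposited; means ± SD are of scaled values.

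The members, the other gene lists, the 6-library comparison and the tests were chosen with earlier results of these data known. Listed values in every library are given for the receptors, for members called with at least a 2-fold change over 6 libraries and for members called against the direction of most, the other members being given by group; fitted values over 8 libraries are given for the receptors and the 3 smallest p. In the pathway lists Irf9, Irf7, Irf1, Jak1, Tyk2 and the largest called change in each direction were named by rule; a further gene of that rule is not reported here. Il10rb, Jak2 and Trim30d, and the marker genes printed, were chosen after their values were seen.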

Additional observations from a re-analysis of the deposited data

Results flagged for a closer look

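A library stood far from the other 3 of its labelled group in 14 of 46 groups of 4 examined (23 genes in each labelled group, log2 of scaled values), its gap to the nearest of them, as a part of the group's range, being above Dixon's critical value. Chance flags about 1 in 20 such groups where they are independent. These are not, since the genes share the same libraries and move together. The count is therefore no test, and the share of flagged groups over all genes is not given. Of the 14, 10 were cCLP 1 and 4 were ex vivo CLP 2, the pair of libraries that go against their labels.

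The values of cCLP 1, with the range of cCLP 2 to 4, were 55.1 for Ifngr1 (71.3 to 73.6), 12.3 for Ifngr2 (18.1 to 19.3), 20.9 for Eif2ak2 (14.9 to 15.3), 21.8 for Adar (13.4 to 13.8), 18 for Gbp7 (6.69 to 7.55), 39.9 for Trim30a (7.44 to 9.56), 23.7 for Sp100 (7.44 to 8.6), 92.1 for Ifi27l2a (8.38 to 9.56) and 25.6 for Ifi30 (1.06 to 1.91). For Oas1a it was 25.6, where cCLP 2 to 4 were listed at 0.0. The values of ex vivo CLP 2, with the range of ex vivo CLP 1, 3 and 4, were 0.0 for Oas1a (22.9 to 30.2), 7.85 for Sp100 (24.4 to 27.8), 4.49 for Ifi27l2a (98.3 to 135) and 4.49 for Lgals3bp (63.1 to 85.8).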

How the results depend on the processing

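Over 8 libraries as labelled, 0 members were called under each alternative and with each library left out (0 to 0 higher, 0 to 0 lower), except that without ex vivo CLP 2 and cCLP 1 together 2 were higher and 15 lower. Over 6 libraries, the count of members lower was 35 without a filter on low values and ranged from 14 to 17 with 1 library left out; the count higher ranged from 1 (without cCLP 3) to 2. No filter shared all 17 calls. The other scalings, pseudocounts of 0.5 and 5, a filter on the mean, protein-coding genes and plain moderation shared 14 to 17 of the 17. Dhx58 was not tested with upper quartile scaling, the sum of values or the filter on the mean, nor without ex vivo CLP 4. Cmpk2 and Gbp2 were not tested with the filter on the mean, nor was Ifi30 in the fit of protein-coding genes. Parp14 and Ifit2 were called in some fits that left out a library, where 2 libraries sufficed for the filter. Signs turned only for genes that were not called: Ifngr1 (-0.02) was 0.02 with upper quartile scaling and 0.02 with the sum of values, and ranged from -0.17 to 0.08 over all alternatives; Trim25 (0.09) ranged from -0.29 (without ex vivo CLP 3) to 0.36 with 1 library left out and was -0.09 without cCLP 2; Rtp4 (-0.24) ranged from -0.46 to 0.02 (without ex vivo CLP 1) with 1 library left out and was 0.19 in the fit with the replicate block. With the replicate number as a block, 0 members were called over 8 libraries, and 2 higher and 15 lower over 6 libraries, the same 17; that fit leaves 1 residual degree of freedom. Deviations from the labelled group means correlated between libraries of the same number at 0.594, 0.842, -0.574 and -0.857. Ex vivo CLP 2 and cCLP 1 lie with the other group, which by itself gives these signs. The correlations therefore cannot show whether the numbers pair the libraries.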
